A study of Mus musculus with 12 samples.

Results

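The genes described here are named for the proteins of the cytosolic ribosome. They were taken by name as every symbol in both deposited count tables made of Rpl or Rps, a number and at most 1 further letter, plus Rplp0, Rplp1, Rplp2 and Rpsa, with pseudogene symbols left out. This gave 82 genes of 25239, of which 32 belong to the small and 50 to the large subunit by name. Not each of them is known to make a ribosomal protein: RefSeq annotates Rps4l as a transcribed pseudogene, and Rpl32l is a retrocopy of Rpl32. All 82 are in RefSeq's annotation of GRCm38.p6, the assembly behind the mm10 build of the alignment, and lie on 19 chromosomes with 4 genes on X. RNA was sequenced from heart cells labelled cultured cardiomyocytes, in 12 libraries and 4 groups of 3. The groups Chaf1a cko and Chaf1a cko 3M carry Myh6-Cre, a Cre recombinase under a cardiomyocyte promoter, with Chaf1a f/f, floxed alleles of the gene for the largest subunit of chromatin assembly factor 1, which places new histones behind replication forks. The groups Ctrl and Ctrl 3M are Chaf1a f/f without Cre and are named WT in the tables, so Cre and the deletion of Chaf1a cannot be told apart. A deposited table holds Ctrl and Chaf1a cko, the first set here, and another holds Ctrl 3M and Chaf1a cko 3M, the 3M set. What 3M stands for is not spelled out in the labels, which give no age or sex and list batch 1 for each library. Whether replicates are separate animals or cultures is likewise not said, so p-values speak only of the spread among the libraries at hand, and that spread may be technical. Library values are given in the order of replicates 1 to 3.

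A ribosome joins a small subunit, which reads the mRNA, to a large subunit, which forms the peptide bonds, and each ribosomal protein is made in about the amount needed for assembly with ribosomal RNA. Mouse ribosomal protein mRNAs usually start with an uninterrupted run of pyrimidines, the 5′ terminal oligopyrimidine (TOP) motif, through which mTOR signalling and the protein LARP1 set their translation together. Their genes are scattered over the genome, many carry small nucleolar RNAs in their introns, and most have processed pseudogenes, which are intronless copies made from the mRNA. In the heart, ribosome content is known to rise with growth and hypertrophy, and Rpl3l is a form of Rpl3 found in striated muscle.

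The sequences around the transcription start are shown because the pyrimidine run is what most of these promoters share. Of the 82 genes, 61 had an entry in the RefSeq promoter table of GRCm38.p6, which holds 250 bases before and 50 bases after an annotated start. A 30-base window is printed 5′ to 3′ on the transcript strand, with the longest run of C or T within 20 bases before to 40 bases after the annotated start in capitals. The first 5 are the genes past the test in the first set that had an entry, and Rps2, Rps28, Rps27l, Rpl41 and Rpl3l are genes described for the 3M set.
Rpsa, chr9:120127774-120127803, plus strand: tccggccgcccgTCCTTTCgcgctacccgg
Rps24, chr14:24490664-24490693, plus strand: ccgcgctggggTCCTTCCTTgcgcgttgat
Rps23, chr13:90923135-90923164, plus strand: tgccttgtgggTCCTTCCTgcacctcctct
Rpl4, chr9:64173361-64173390, plus strand: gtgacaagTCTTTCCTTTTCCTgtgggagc
Rpl27, chr11:101442225-101442254, plus strand: ccggaacgctctgTTCCTgtctgctgctcg
Rps2, chr17:24720078-24720107, plus strand: actataaattgTCCCTTCCgcggcgcctcc
Rps28, chr17:33824566-33824595, minus strand: ctgtcccgaggatTCCTgggtaccgcgtgc
Rps27l, chr9:66946063-66946092, plus strand: actcctctccaCTCCTCCCCgccgcctcta
Rpl41, chr10:128549156-128549185, minus strand: gacacacgggccggCTCggaagtgacgaca
Rpl3l, chr17:24727846-24727875, plus strand: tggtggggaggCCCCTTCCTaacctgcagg
The run was 14 bases long in Rpl4, 9 in Rps24, Rps27l and Rpl3l, 8 in Rps23 and in Rps2, 7 in Rpsa and 5 in Rpl27, and it was shorter in Rps28 and Rpl41, with 4 and 3 bases.

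A run of at least 8 pyrimidines in that stretch was present in 41 of the 61 promoters (67.2%), against 21.8% of 27025 promoters in the table. The longest belonged to Rpl7a and Rpl27a, with 21 and 20 bases, and both are shown for comparison with the shorter runs above.
Rpl7a, chr2:26910788-26910817, plus strand: cacaaTTCCCTCTTCTTTCTTTCTCCagca
Rpl27a, chr7:109519186-109519215, plus strand: gtgagCTCCTCCCTTTTCCCTTTCTgccac
The letters CTCTTTC on the transcript strand, which can overlap such a run, were found in the 300 bases of 12 of the 61 promoters (19.7%) and in 3.91% of all promoters. The letters CCGGAA on either strand, the core of sites for ETS family factors, were found in 30 (49.2%) against 15.2%. GGGCGG on either strand, the core of GC boxes, was found in 35 (57.4%) against 35.9%, and TATAAA on either strand in 6 (9.84%) against 14.2%. These 5 features were chosen after the promoters had been read, a match is a description and not a binding site, and annotated starts can lie off the true start. Small nucleolar RNA genes lay inside 29 of the 82 genes (35.4%), against 1.18% of 21951 protein-coding genes of GENCODE M21. Rpl4 alone holds 5 of them and Rpsa 3.

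The 6 libraries of the first set held 15068468 to 20896673 counts each, those of the 3M set 10569325 to 16445963. Chaf1a, the targeted gene, was at 22.7, 32.3 and 18.8 CPM in the Ctrl libraries, against 28.99, 24.5 and 22.0 CPM in Chaf1a cko. The 3M libraries held 1.88, 4.74 and 9.75 CPM in the Ctrl 3M libraries, against 8.34, 5.58 and 5.54 CPM in Chaf1a cko 3M. The libraries labelled Chaf1a cko thus did not hold less of it, and each direction given here rests on those labels. Counts per gene cannot show whether a part of the gene was removed, so they do not settle whether the deletion took place. Counts of Y-linked genes summed to 50.7 to 60.6 CPM in Ctrl and 111 to 135 CPM in Chaf1a cko, and to 404 to 644 CPM over Ctrl 3M against 355 to 398 CPM over Chaf1a cko 3M. The sums did not overlap in either set, higher in Chaf1a cko in the first and lower in the 3M set, so that in both sets the genotype and the mixture of sexes cannot be told apart. The first table also held reads in genes that heart cells do not use: 1538 chemoreceptor genes had a median of 1.66 CPM and a 95th percentile of 5.35 CPM, against 0 for both in the 3M set. Values below are in CPM, counts scaled to library size with TMM factors; levels are not compared between the tables, and in these bulk libraries fewer cells of a type and less RNA per cell cannot be told apart.

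The ribosomal protein genes as a group took a larger share of the counts in Chaf1a cko than in Ctrl of the first set. Their summed share was 1.46, 1.41 and 1.44% of all counts in Ctrl, against 1.64, 1.64 and 1.59% in Chaf1a cko. All 3 Chaf1a cko libraries lay above all 3 Ctrl libraries, with means of 1.44 ± 0.0223 against 1.63 ± 0.0286% (SD, n = 3 each). Both subunits shifted the same way: the small subunit genes held 0.528 ± 0.00364 against 0.601 ± 0.00863% and the large subunit genes 0.909 ± 0.0190 against 1.03 ± 0.0200% (SD, n = 3 each). The ratio of small to large subunit counts was 0.581 ± 0.00874 against 0.586 ± 0.00313 (SD, n = 3 each), a difference smaller than the spread in Ctrl.

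The direction was the opposite in the 3M set. There the summed share was 3.71, 4.19 and 4.43% in Ctrl 3M, against 3.65, 3.30 and 3.66% in Chaf1a cko 3M. The groups did not overlap, but Ctrl 3M replicate 1 lay close above the highest Chaf1a cko 3M library, and the means were 4.11 ± 0.368 against 3.54 ± 0.202% (SD, n = 3 each). The small subunit genes held 1.77 ± 0.176 against 1.48 ± 0.0901% and the large subunit genes 2.34 ± 0.194 against 2.05 ± 0.119% (SD, n = 3 each). The ratio of small to large subunit counts was 0.743, 0.743 and 0.772 in the Ctrl 3M libraries, against 0.745, 0.721 and 0.702 in Chaf1a cko 3M, and the groups overlapped. No test was made on these sums, which add up many genes.

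**Figure D1:**
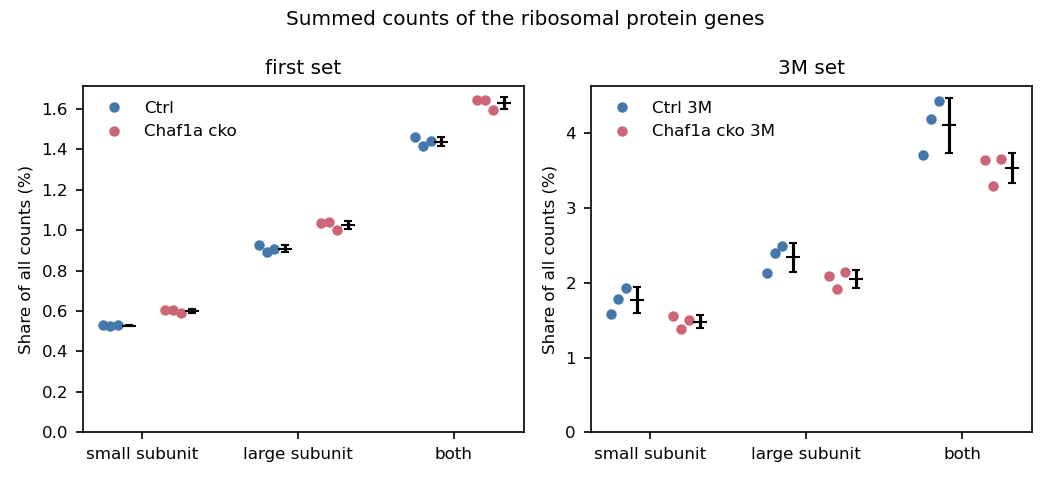
Share of all counts of a library, in percent, held by the genes of the small subunit, the large subunit and both, in the first set (left) and the 3M set (right). Each point is 1 library and the bars are the mean ± SD of 3 libraries; Chaf1a cko lies above Ctrl in the first set (1.63% against 1.44% for both subunits) and below it in the 3M set (3.54% against 4.11%).

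Each gene was then tested with the quasi-likelihood test of edgeR, p-values being adjusted by Benjamini and Hochberg over all genes tested. In the first set 8 of the 82 genes (9.76%) were higher in Chaf1a cko at an adjusted p under 0.05, 0 were lower and 74 did not pass. Over all 22965 genes tested, 1.18% passed, 0.74% higher and 0.435% lower. These include many genes with few counts. An alternative filter of at least 10 CPM in 3 libraries kept 10402 genes, of which 191 were higher and 175 lower, a larger share. It kept 75 of the ribosomal protein genes, 65 of them with a log2 fold change above 0. The shares of all genes that follow are over the 22965, those with few counts included. The log2 fold change was above 0 in 73 of 82 genes (89.0%), against 49.1% of all genes (50.9% were below 0), with a median of 0.18 against -0.01. In 42 of 82 genes (51.2%) all Chaf1a cko libraries lay above all Ctrl libraries, and in 0 genes below, against 8.33% and 7.85% of all genes. At an unadjusted p under 0.05, 38 genes were higher and 0 lower, against 5.63% and 4.5% of all genes, or 10.1% in either direction. The 42 include Rpl29, where Ctrl replicate 2 fell to 7.81 CPM, and Rplp2, whose sums with its copy overlapped. Rpl26 is among the 73, the 42 and the 38, and Rpl32l and Rpl10l are among the 73. These 3 genes lay near or below the chemoreceptor level of 5.35 CPM, as did Rpl39l and Rpl3l, which were below 0. The median was 0.15 over the 32 small subunit genes, of which 4 were called, and 0.18 over the 50 large subunit genes, of which 4 were called. The count of genes past the test was 12 without Ctrl replicate 1, 6 without Ctrl replicate 3, 5 without Ctrl replicate 2 or without Chaf1a cko replicate 1, and 4 when Chaf1a cko replicate 2 or 3 was left out, while the Wald test of DESeq2 called 16, all higher, and also 308 of all 22956 genes as higher (1.34%).

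Among small subunit genes, the smallest p belonged to Rpsa, which encodes a protein of the subunit's head also known as the laminin receptor (gene at chr9:120127766-120132369). It was at 900.3, 882 and 858 CPM in the Ctrl libraries, against 1092, 1089 and 1099.6 CPM in Chaf1a cko. All Chaf1a cko libraries were above all Ctrl libraries and close to each other, with a log2 fold change of 0.31 (SE 0.033, adjusted p = 2.83e-05, edgeR). Rps24 (chr14:24490678-24496960), mutated in some cases of Diamond-Blackfan anaemia, a human disorder of red cell formation, was at 392, 385 and 410.5 CPM in the Ctrl libraries, against 476, 509 and 485 CPM in Chaf1a cko. The groups stood apart, with a log2 fold change of 0.31 (SE 0.045, adjusted p = 0.000974, edgeR). Rps23 (chr13:90923122-90924732), whose protein lines the decoding centre, was at 406, 370.0 and 400.0 CPM in the Ctrl libraries, against 468, 459 and 449 CPM in Chaf1a cko. There was no overlap, with a log2 fold change of 0.23 (SE 0.047, adjusted p = 0.0210, edgeR).

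Among large subunit genes the call with the largest fold change was Rpl27 (chr11:101442245-101445596), also mutated in some cases of Diamond-Blackfan anaemia. It was at 86.2, 81.5 and 85.8 CPM in the Ctrl libraries, against 113, 130.6 and 113 CPM in Chaf1a cko. The Chaf1a cko libraries were all above Ctrl, replicate 2 most, with a log2 fold change of 0.49 (SE 0.078, adjusted p = 0.00192, edgeR). Rpl4 (chr9:64173387-64178562), whose protein reaches into the tunnel through which the new peptide leaves, was at 509, 488 and 470.2 CPM in the Ctrl libraries, against 593, 583 and 585 CPM in Chaf1a cko. The lowest Chaf1a cko library was above the highest Ctrl library, with a log2 fold change of 0.26 (SE 0.042, adjusted p = 0.00192, edgeR). Rpl32 (chr6:115805514-115808743) was at 169, 161 and 163 CPM in the Ctrl libraries, against 195, 196 and 214 CPM in Chaf1a cko, with Chaf1a cko replicate 3 the highest and no overlap. It had a log2 fold change of 0.29 (SE 0.06, adjusted p = 0.0185, edgeR), and reads could be shared with Rpl32l, a retrocopy at no more than 2.17 CPM. Rplp1 (chr9:61913283-61914510), an acidic protein of the stalk that recruits translation factors, was at 317, 298 and 298 CPM in the Ctrl libraries, against 354, 366 and 348 CPM in Chaf1a cko. Here too the groups were apart, with a log2 fold change of 0.22 (SE 0.049, adjusted p = 0.0268, edgeR). Rpsa, Rps24, Rpl27 and Rpl4 passed under each of the 14 alternative settings and left-out libraries that were run. Rps23 did not pass when Chaf1a cko replicate 1, 2 or 3 or Ctrl replicate 2 was left out. Rpl32 and Rplp1 did not pass when any of these 4 libraries or Ctrl replicate 3 was left out, and Rplp1 did not pass with library size alone or with a replicate block.

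**Figure D2:**
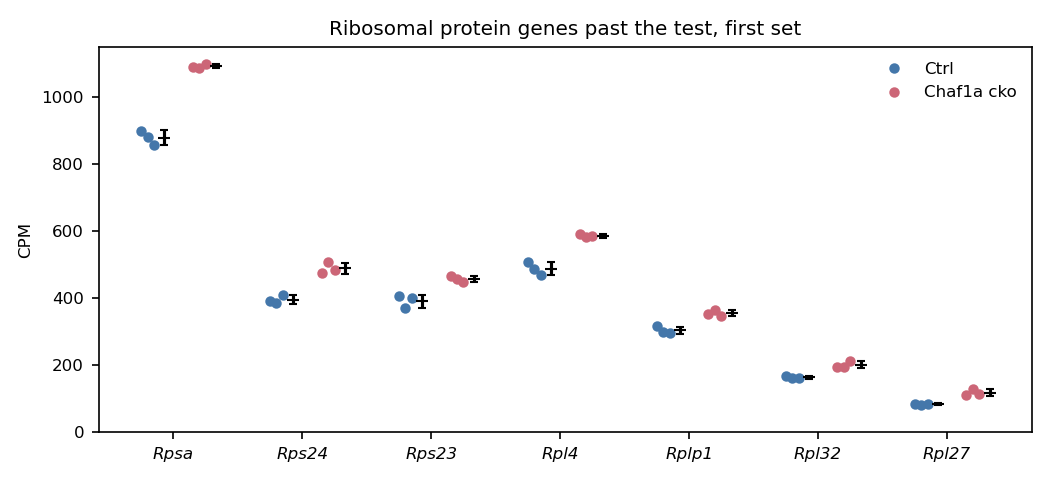
Level in CPM (linear axis from 0) of 7 genes past the test in the first set, small subunit genes first, with 1 point per library and bars for the mean ± SD of 3 libraries. In each gene the 3 Chaf1a cko libraries lie above the 3 Ctrl libraries, from 880.1 to 1093 CPM on average in Rpsa and from 84.5 to 119 CPM in Rpl27.

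Among the 74 genes that did not pass, the order in p put Rps4x next, at 186, 190.1 and 176 CPM in the Ctrl libraries, against 213, 212 and 223 CPM in Chaf1a cko. The groups did not overlap, with a log2 fold change of 0.23 (SE 0.056, adjusted p = 0.0592, edgeR). Rpl3, which holds residues close to the peptidyl transferase centre, followed at 350.4, 374 and 364 CPM in the Ctrl libraries, against 382, 461 and 443 CPM in Chaf1a cko, with a log2 fold change of 0.24 (SE 0.06, adjusted p = 0.0697, edgeR). Genes whose log2 fold change was below 0 in the first set numbered 9, 7 of them between -0.12 and 0. The other two were Rpl30 at -0.73 and Rpl7a at -0.97, whose counts are given with the copies further on.

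Of the 82 genes, 78 were tested in the 3M set, as Rpl26, Rpl32l, Rpl39l and Rpl10l had too few counts. None of them passed, the smallest adjusted p being 0.587, and over all 13925 genes tested 2 passed (0.0144%), 1 in each direction (0.00718%). The Wald test of DESeq2 called 0 of them as well. The log2 fold change was below 0 in 73 of 78 genes (93.6%), against 52% of all genes (48% were above 0), with a median of -0.26 against -0.02. In 31 genes (39.7%) all Chaf1a cko 3M libraries lay below all Ctrl 3M libraries, and in 0 genes above, against 6.89% and 7.21% of all genes. At an unadjusted p under 0.05, 10 genes were lower and 0 higher, against 3.73% and 3.2% of all genes, or 6.93% in either direction. The median was -0.32 over 32 small and -0.21 over 46 large subunit genes.

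Rps2, whose protein sits at the entrance of the mRNA channel of the small subunit, had the smallest p in the 3M set. It was at 639.8, 708 and 706 CPM in the Ctrl 3M libraries, against 474, 427 and 431 CPM in Chaf1a cko 3M. The groups were well apart and each was tight, with a log2 fold change of -0.62 (SE 0.17, adjusted p = 0.587, edgeR) and an unadjusted p of 0.00509. Rps28 (chr17:33823036-33824562), a small protein near the exit of the mRNA channel, was at 259, 227 and 252 CPM in the Ctrl 3M libraries, against 176, 158 and 119 CPM in Chaf1a cko 3M. No Chaf1a cko 3M library reached the Ctrl 3M range, with a log2 fold change of -0.70 (SE 0.20, adjusted p = 0.604, edgeR). Rps27l (chr9:66944624-66949522), a paralog of Rps27 known as a p53 target, was at 94.2, 81.7 and 93.9 CPM in the Ctrl 3M libraries, against 64.1, 59.0 and 50.5 CPM in Chaf1a cko 3M. Its groups were apart as well, with a log2 fold change of -0.64 (SE 0.19, adjusted p = 0.607, edgeR). Rpl41 (chr10:128548110-128549168), the shortest of these genes with a coding length of 75 bases, was at 702, 692 and 887 CPM in the Ctrl 3M libraries, against 463, 529 and 574 CPM in Chaf1a cko 3M. Its groups did not overlap, with a log2 fold change of -0.54 (SE 0.19, adjusted p = 0.650, edgeR). None of these 4 genes passed the adjusted threshold.

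**Figure D3:**
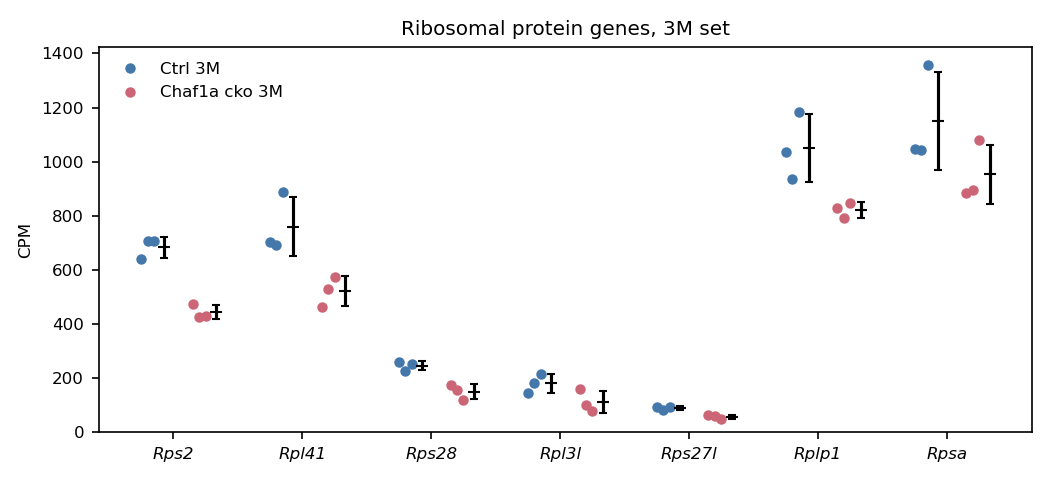
Level in CPM (linear axis from 0) in the 3M set of the 4 genes with the smallest p (Rps2, Rps28, Rps27l and Rpl41), of Rpl3l, and of Rplp1 and Rpsa, which had passed the test in the first set. Points are libraries and bars the mean ± SD of 3 libraries; Rps2 is at 684.5 CPM on average in Ctrl 3M, against 444.0 CPM in Chaf1a cko 3M, Rpl3l and Rpsa overlap between the groups, and none of the genes passed the adjusted threshold.

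Most genes that lay higher in Chaf1a cko of the first set lay lower in Chaf1a cko 3M. Of 78 genes tested in both sets, 67 had a log2 fold change above 0 in the first set and below 0 in the 3M set. In 17 of 78 (21.8%) the groups did not overlap in either set, higher in the first and lower in the 3M set, against 0.83% of 13856 genes tested in both, and 0 genes had the reverse. The 17 were Rpl3, Rpl8, Rpl13, Rpl18, Rpl19, Rpl29, Rpl32, Rpl41, Rplp0, Rplp1, Rplp2, Rps9, Rps10, Rps19, Rps21, Rps26 and Rps29, named after their values were seen. Among them, Rpl29 and Rplp2 have the limits given above for the first set. The test of the difference itself, the interaction of set and genotype over 12 libraries, passed for 0 of 82 genes, against 0.0658% of 22803 genes tested (0.00877% lower in the 3M set). The difference was below 0 in 77 of 82 genes against 47% of all genes, with a median of -0.41 against 0.04. An unadjusted p under 0.05 was found for 33 genes, all below 0, against 4.64% of all genes (9.47% in either direction). The 82 include Rpl26, Rpl32l, Rpl39l and Rpl10l, which had too few counts to be tested in the 3M set. Of these, Rpl10l (SE 492), Rpl39l and Rpl32l count as below 0 and Rpl26 as above. Their differences are not a reading of the 3M set. The 22803 genes likewise include genes not tested in the 3M set. The Wald test of DESeq2 called 8 of the 80 ribosomal protein genes to which it gave a p-value, all lower in the 3M set. It also called 195 of all 22694 genes as lower (0.859%). The smallest p belonged to Rps2, with a difference in log2 fold change of -0.63 (SE 0.14, 95% interval -0.94 to -0.31, adjusted p = 0.224). Rpl41 followed with -0.79 (SE 0.19, 95% interval -1.21 to -0.37, adjusted p = 0.271). Rps19, a Diamond-Blackfan anaemia gene, had -0.63 (SE 0.16, 95% interval -0.98 to -0.28, adjusted p = 0.296), and Rplp1 had -0.54 (SE 0.14, 95% interval -0.85 to -0.23, adjusted p = 0.319). These adjusted p-values are from edgeR, and no single gene passed. The fit used 1 estimate of spread per gene for both sets, though spread was larger in the 3M set. For Rps2 the SE of the difference, 0.14, was thus below the 0.17 of the 3M set alone. These intervals may be too narrow and the unadjusted p-values too small.

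The library values behind these differences are given for the genes not yet described in both sets. Rps2 of the first set was at 227, 226 and 233 CPM in the Ctrl libraries, against 254, 234 and 217 CPM in Chaf1a cko, where the groups overlapped with a log2 fold change of 0.04. Rpl41 was at 199, 149 and 164 CPM in the Ctrl libraries, against 209, 206 and 207 CPM in Chaf1a cko in the first set. It lay higher without overlap, with a log2 fold change of 0.28 (SE 0.084, adjusted p = 0.182, edgeR). Rps19 of the first set was at 94.3, 78.0 and 72.4 CPM in the Ctrl libraries, against 104, 96.0 and 95.6 CPM in Chaf1a cko, higher without overlap and with a log2 fold change of 0.27 (SE 0.093, adjusted p = 0.258, edgeR). Its 3M values were 615, 599 and 678 CPM in the Ctrl 3M libraries, against 498, 463 and 481 CPM in Chaf1a cko 3M, lower without overlap and with a log2 fold change of -0.39 and an adjusted p of 0.712 in edgeR. Rpl4 and Rpl27, both past the test in the first set, did not pass in the 3M set, where their groups overlapped. Rpl4 was at 862, 1101 and 917 CPM in the Ctrl 3M libraries, against 975, 899 and 1017 CPM in Chaf1a cko 3M, a log2 fold change of 0.01, and Rpl27 at 376, 264 and 299 CPM in the Ctrl 3M libraries, against 328, 266 and 269.9 CPM in Chaf1a cko 3M, a log2 fold change of -0.12.

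**Figure D4:**
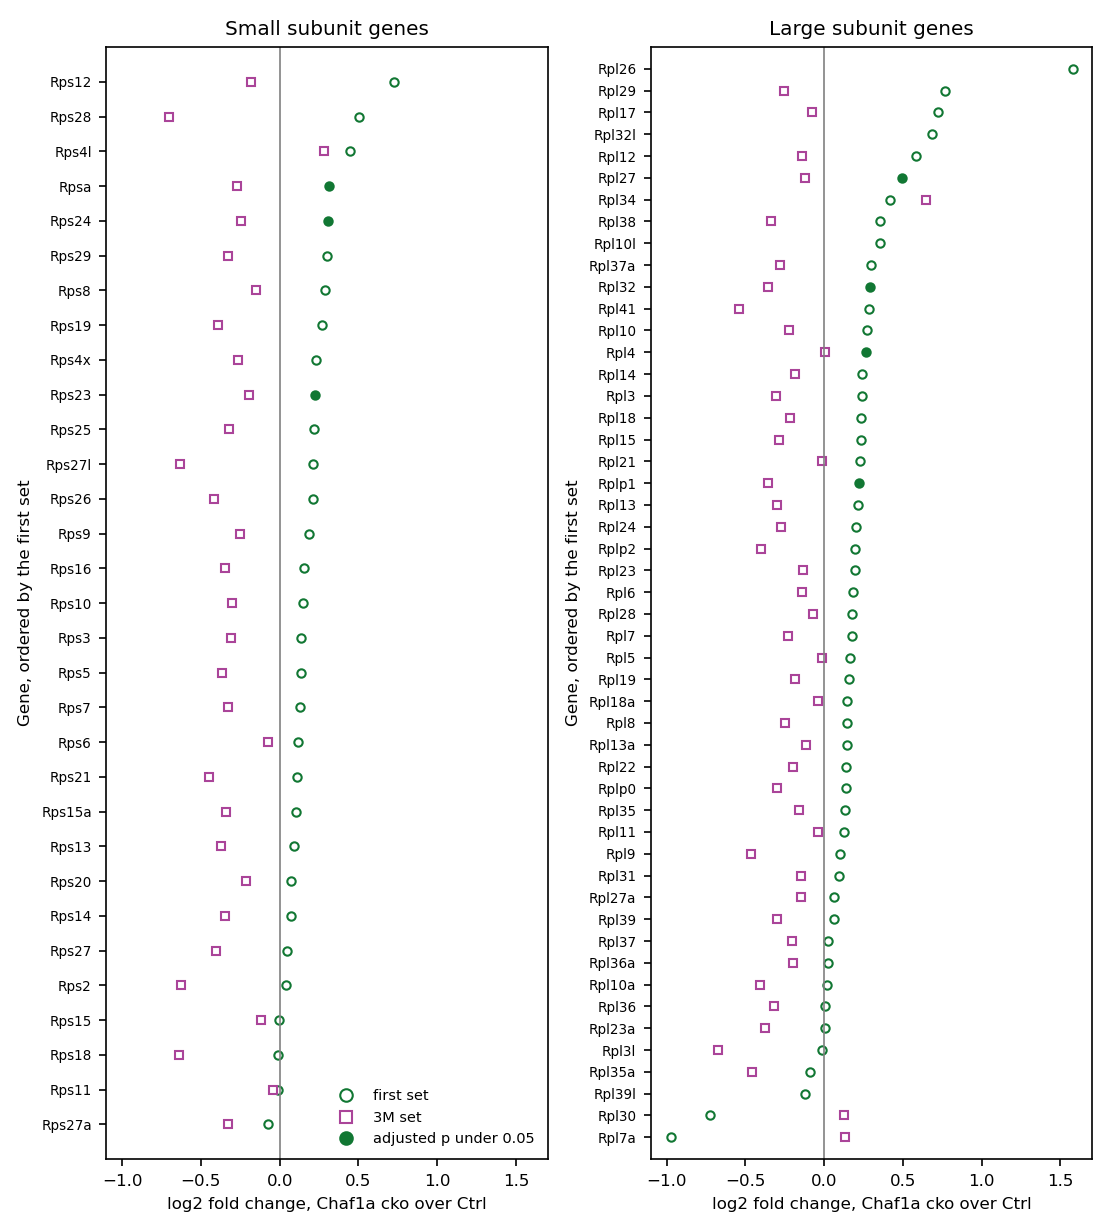
Log2 fold change of Chaf1a cko over Ctrl for genes of the small (left) and large (right) subunit, with circles for the first set (81 genes shown) and squares for the 3M set (77 genes shown), ordered by the first set. Filled circles mark 7 genes with an adjusted p under 0.05; most circles lie to the right of 0 (72 of 81) and most squares to the left (72 of 77).

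The stalk of the large subunit is built from Rplp0 and dimers of Rplp1 and Rplp2, and it recruits the elongation factors. Rplp0 was at 647, 658 and 641 CPM in the Ctrl libraries, against 712, 720.0 and 707 CPM in Chaf1a cko. Its groups did not overlap and were tight, but with a log2 fold change of 0.14 (SE 0.036, adjusted p = 0.100, edgeR) it did not pass. Rplp2 was at 398, 384 and 312 CPM in the Ctrl libraries, against 424, 415 and 412 CPM in Chaf1a cko, with Ctrl replicate 3 the lowest, a log2 fold change of 0.19 and an adjusted p of 0.400 in edgeR. In that Ctrl library 18.5% of the summed counts of Rplp2 and its copies stood on Rplp2-ps1, against at most 5.73% in the other 5 libraries, and the sums were 422, 401 and 383 against 443, 435 and 415 CPM, with overlap. All 3 stalk genes lay lower without overlap in the 3M set. There Rplp0 was at 901, 973 and 1088 CPM in the Ctrl 3M libraries, against 782, 735 and 886 CPM in Chaf1a cko 3M, a log2 fold change of -0.30. Rplp1 was at 1037, 935 and 1184 CPM in the Ctrl 3M libraries, against 828, 791 and 849 CPM in Chaf1a cko 3M, a log2 fold change of -0.35. Rplp2 was at 407, 343 and 445 CPM in the Ctrl 3M libraries, against 326, 299 and 281 CPM in Chaf1a cko 3M, a log2 fold change of -0.40. None of these 3 passed in the 3M set, and the adjusted p in edgeR was 0.770, 0.737 and 0.713. Rpsa, which had the smallest p in the first set, was here at 1048, 1043 and 1358 CPM in the Ctrl 3M libraries, against 886, 894 and 1080.4 CPM in Chaf1a cko 3M, where the groups overlapped.

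Paralogs stand in for a ribosomal protein in some tissues. Rpl3l, the striated muscle form of Rpl3, lies on chr17 just downstream of Rps2, which is at chr17:24718121-24721927, while Rpl3l is at chr17:24727826-24736143, both on the plus strand. Rpl3l stayed between 2.10 and 5.48 CPM in the first set, with both group means below the background level of 5.35 CPM, so it gave no reading there. It was at 145, 183 and 215 CPM in the Ctrl 3M libraries, against 159, 101 and 80.8 CPM in Chaf1a cko 3M. The groups overlapped because Chaf1a cko 3M replicate 1 was above Ctrl 3M replicate 1, and with a log2 fold change of -0.67 (SE 0.28, adjusted p = 0.712, edgeR) it did not pass. The ratio of Rpl3l to Rpl3 counts per kilobase was 0.279, 0.286 and 0.398 in the Ctrl 3M libraries, against 0.344, 0.205 and 0.191 in Chaf1a cko 3M. Replicates 2 and 3 of Chaf1a cko 3M were lowest, while replicate 1 was within the range of Ctrl 3M. Rpl3 itself was at 510.2, 630.1 and 530.4 CPM in the Ctrl 3M libraries, against 454, 481 and 415 CPM in Chaf1a cko 3M, a log2 fold change of -0.31 with no overlap and an adjusted p of 0.769 in edgeR.

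Rps27, the partner of Rps27l, was at 201, 168 and 299 CPM in the Ctrl 3M libraries, against 188, 153 and 163 CPM in Chaf1a cko 3M. Ctrl 3M replicate 3 stood high, the groups overlapped, and Rps27 had a log2 fold change of -0.40 (SE 0.24, adjusted p = 0.776, edgeR). Its copy Rps27rt, with an identical coding sequence, held 0 to 17.1% of their summed counts in these libraries. The sums were 242, 168 and 346 CPM in Ctrl 3M, against 188, 175 and 163 CPM in Chaf1a cko 3M, with overlap. Rps27l of the first set was at 10.04, 8.48 and 8.41 CPM in the Ctrl libraries, against 7.52, 11.2 and 12.4 CPM in Chaf1a cko and overlapped, with a log2 fold change of 0.21 (SE 0.24, adjusted p = 0.853, edgeR). Rps4l, a counterpart of the X-linked Rps4x that RefSeq annotates as a transcribed pseudogene, was at 33.2, 29.1 and 29.4 CPM in the Ctrl libraries, against 41.0, 39.0 and 44.7 CPM in Chaf1a cko. The groups did not overlap, but with a log2 fold change of 0.44 (SE 0.12, adjusted p = 0.111, edgeR) it did not pass. Rps4l of the 3M set was at 37.5, 39.3 and 30.5 CPM in the Ctrl 3M libraries, against 39.2, 54.9 and 36.2 CPM in Chaf1a cko 3M and overlapped, 1 of 5 genes with a log2 fold change above 0 there, at 0.28. Rpl10l, a retrogene known from testis, was at 2.74 to 7.10 CPM in the first set, around the background level, and had 0 counts in every library of the 3M set. Its counterpart Rpl10 on X was at 159.7, 161 and 137.4 CPM in the Ctrl libraries, against 156, 218 and 179 CPM in Chaf1a cko, with Chaf1a cko replicate 2 the highest, overlapping groups and a log2 fold change of 0.27 (SE 0.12, adjusted p = 0.482, edgeR). The testis paralog Rpl39l stayed at or below 2.74 CPM in the first set and was seen in 1 library of the 3M set.

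Levels per gene can be compared only per length. This order uses the counts on each gene alone and leaves out those on its pseudogenes. By mean CPM per kilobase of a GENCODE M21 transcript, Rplp2 at 928 was then the highest gene of the first set, with Rplp1 at 662. With its pseudogene Gm15772 added, Rpl26 averaged 537 (Ctrl) and 618 CPM (Chaf1a cko) on a transcript of 526 bases. Rplp2 with Rplp2-ps1 averaged 402 (Ctrl) and 431 CPM (Chaf1a cko) on 421 bases, which is less per base. The first place of Rplp2 thus depends on how reads were assigned to copies. The lowest were Rpl3l and Rpl39l at 2.95 and Rpl32l at 2.75 CPM per kilobase, which is background. Rplp1 at 1878, Rps15 at 1733 and Rps29 at 1494 CPM per kilobase were the highest in the 3M set, where Rplp1 and Rps15 differed by less than the spread of their libraries. Rps15, at 779.8, 861 and 1067 CPM in the Ctrl 3M libraries, against 819, 815 and 858 CPM in Chaf1a cko 3M, overlapped between groups with a log2 fold change of -0.12. Rps29 was at 659.6, 573 and 712 CPM in the Ctrl 3M libraries, against 549, 492 and 511 CPM in Chaf1a cko 3M without overlap, a log2 fold change of -0.32 and an adjusted p of 0.755 in edgeR. The lowest in the 3M set were Rpl32l at 0.883, Rpl39l at 0.269 and Rpl10l at 0 CPM per kilobase.

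Ribosomal protein genes are hard to count because of their pseudogenes. Of the 82 genes, 75 have at least 1 other GENCODE M21 gene that matches at least 80% of their coding sequence at 95% identity or more, with a median of 5 and at most 57 copies. Copies listed in the count tables were found for 19 genes. For 16 genes, 19 pseudogenes or retrogenes in the tables, found by that match or by name, were set beside them. The extreme was Rpl26, where 99.0% to 99.8% of the summed counts in the first set and 97.0% or more in the 3M set stood on the pseudogene Gm15772. Rpl26 itself was at 0.937, 1.19 and 1.13 CPM in the Ctrl libraries, against 1.68, 1.91 and 6.17 CPM in Chaf1a cko, all but 1 below the background level, and its log2 fold change of 1.58 is not a reading of the gene. Rpl26 and Gm15772 together were at 556, 523 and 530.2 CPM in the Ctrl libraries, against 612, 611 and 631 CPM in Chaf1a cko, higher without overlap. Gm15772 alone passed the test there, with a log2 fold change of 0.20 and an adjusted p of 0.0178 in edgeR, but not when any library other than Ctrl replicate 1 was left out (0.0805 to 0.150). The sum in the 3M set was 709, 783 and 888 CPM in the Ctrl 3M libraries, against 707, 557 and 697 CPM in Chaf1a cko 3M, lower without overlap but with the highest Chaf1a cko 3M library close below the lowest Ctrl 3M library.

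Rps18 was split in the same way, with 75.4% to 83.9% of the summed counts on Rps18-ps4 in the first set and 93.6% to 99.4% in the 3M set. The log2 fold change of Rps18 was -0.01 in the first set, while the sum with its copy was 170.2, 163 and 162 CPM in the Ctrl libraries, against 174, 181 and 175 CPM in Chaf1a cko, without overlap. Rpl34 was at 23.5, 14.2 and 17.98 CPM in the Ctrl 3M libraries, against 15.6, 59.0 and 12.2 CPM in Chaf1a cko 3M. Chaf1a cko 3M replicate 2 alone stood high, the log2 fold change of 0.64 was the highest of the 78 genes, and 53.0% to 94.4% of its summed counts stood on Rpl34-ps1. The sum was 270.2, 254 and 270.1 CPM in the Ctrl 3M libraries, against 212, 126 and 164 CPM in Chaf1a cko 3M, lower without overlap, the opposite of the gene's own counts. Rpl30 was at 416, 217 and 184 CPM in the Ctrl 3M libraries, against 286, 318 and 289 CPM in Chaf1a cko 3M, and in Ctrl 3M replicates 2 and 3 49.5% and 55.0% of its summed counts stood on 3 pseudogenes, against at most 2.51% elsewhere in that set. The sum was 426, 430.2 and 409 CPM in the Ctrl 3M libraries, against 292, 319.7 and 291 CPM in Chaf1a cko 3M, lower without overlap, whereas the gene alone had overlapping groups and a log2 fold change of 0.13.

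Rpl30 of the first set was at 25.8, 23.1 and 28.4 CPM in the Ctrl libraries, against 20.6, 26.3 and 0 CPM in Chaf1a cko, so that 1 library had no count on the gene and all of its 49.9 CPM on the pseudogenes. Rpl29 was at 246, 7.81 and 290.2 CPM in the Ctrl libraries, against 302, 293 and 331 CPM in Chaf1a cko. Ctrl replicate 2 stood far below the others, and its listed pseudogene Gm8580 did not make up the gap, the sum being 13.04 CPM. Rpl7a was at 35.0, 9.42 and 8.6 CPM in the Ctrl libraries, against 6.86, 11.8 and 8.09 CPM in Chaf1a cko, with Ctrl replicate 1 alone high. Its values in the 3M set were 101, 52.9 and 63.5 CPM in the Ctrl 3M libraries, against 79.7, 100.4 and 58.4 CPM in Chaf1a cko 3M, and they overlapped. With the counts of the copies added before the fit, 9 genes passed in the first set. None of the 3M set passed, where 76 of 79 then had a log2 fold change below 0. The sources used here do not say how reads that match several copies were counted.

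**Figure D5:**
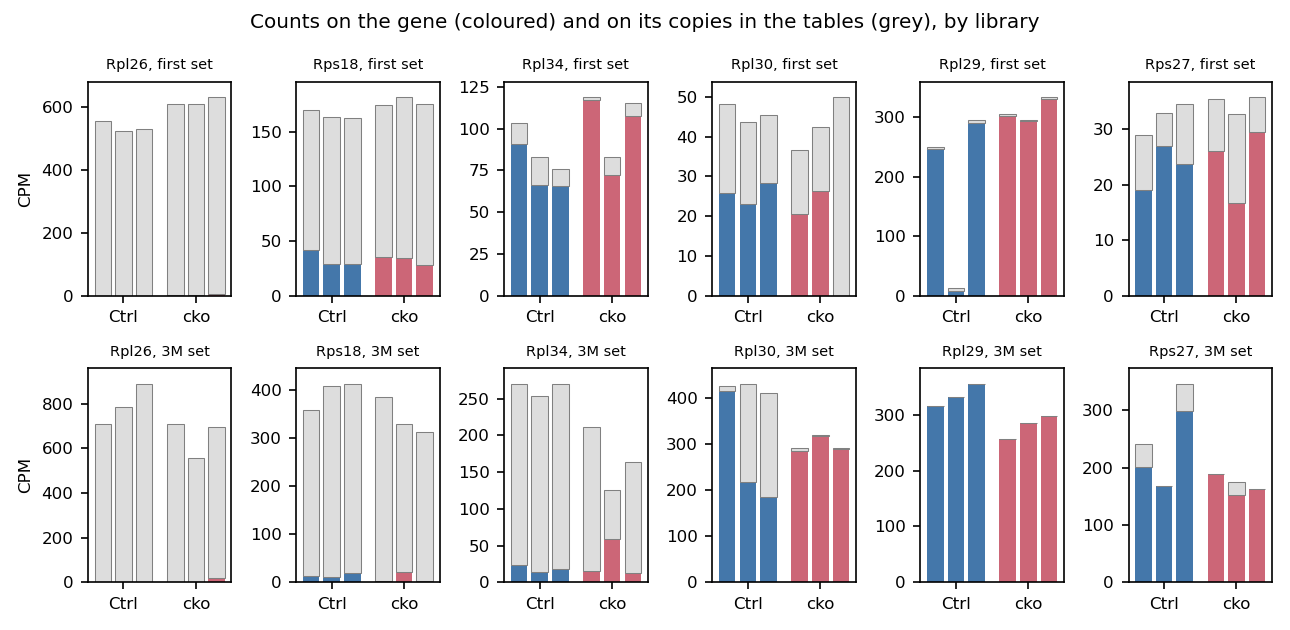
Counts in CPM on 6 ribosomal protein genes (blue bars for Ctrl or Ctrl 3M, red for Chaf1a cko or Chaf1a cko 3M) and on their pseudogenes or retrogenes in the tables (grey, stacked on top), 1 bar per library in replicate order. Rpl26 is almost all grey, Rps18 mostly grey, Rpl34 turns from mostly coloured in the first set to mostly grey in the 3M set, Rpl30 is fully grey in Chaf1a cko replicate 3, and Rpl29 in Ctrl replicate 2 is 13.04 CPM in sum.

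The spread between libraries differed widely among the genes. Among genes with a mean of at least 10 CPM, the median coefficient of variation between libraries was 6.93% in Ctrl, 5.55% in Chaf1a cko, 11.1% in Ctrl 3M and, over the Chaf1a cko 3M libraries, 9.79%. It was above 30% in 8 of 76 genes in Ctrl, among them Rpl7a, Rpl29, Rpl12 and Rpl17, and in 5 of 76 in Chaf1a cko, among them Rpl30, Rps28 and Rps12. Of the 3M set, it was above 30% in 5 of 78 genes (Ctrl 3M) and 4 of 78 genes of the Chaf1a cko 3M libraries. Rps28 of the first set was at 20.7, 20.2 and 63.0 CPM in the Ctrl libraries, against 95.4, 26.2 and 26.6 CPM in Chaf1a cko, with Ctrl replicate 3 and Chaf1a cko replicate 1 far above the others. Its log2 fold change of 0.50 had an SE of 0.84, larger than itself.

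The other genes of the translation machinery are given as lists. Of 36 initiation factors, 1 rose and 0 fell in the first set, with a median log2 fold change of 0.09. The riser was Eif4a1, the helicase that unwinds mRNA leaders, at 253, 243 and 241 CPM in the Ctrl libraries, against 311, 277 and 286 CPM in Chaf1a cko, with a log2 fold change of 0.25 (SE 0.055, adjusted p = 0.0320, edgeR). It did not pass with library size alone (adjusted p = 0.0694 in edgeR) or when any 1 of the 6 libraries was left out (0.0524 to 0.250). Of 20 elongation factors and other genes with TOP mRNAs, 3 rose and 0 fell, with a median of 0.12. They were Vim, the intermediate filament protein of mesenchymal cells, Nap1l1, a histone chaperone, and Eef1a1, which brings tRNAs to the ribosome. Their log2 fold changes were 0.23, 0.78 and 0.13, with adjusted p-values of 9.84e-05, 0.00731 and 0.0390 in edgeR. Vim passed under each alternative run, and Nap1l1 under each but without Ctrl replicate 2 (adjusted p = 0.0729 in edgeR). Eef1a1 did not pass with library size alone (adjusted p = 0.165 in edgeR), in the Wald test of DESeq2 (0.0721) or when any 1 of the 6 libraries was left out (0.0684 to 0.307). Of 8 ribosomal protein genes or paralogs with other names, among them Fau and Rack1, 0 passed in either direction, with a median of 0.07.

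Of 20 genes for RNA polymerase I and its factors, 1 rose and 0 fell, with a median of 0.18. It was Polr1a, the largest subunit of the polymerase that makes ribosomal RNA, at 52.9, 47.6 and 55.4 CPM in the Ctrl libraries, against 68.4, 85.1 and 74.4 CPM in Chaf1a cko, with a log2 fold change of 0.55 (SE 0.10, adjusted p = 0.00812, edgeR). It did not pass without Ctrl replicate 2 (adjusted p = 0.0726 in edgeR) or Chaf1a cko replicate 2 (0.0863). Of 80 ribosome assembly genes, 0 passed in either direction, with a median of 0.05. Of 22 regulators, 0 rose and 1 fell, with a median of 0.04. The one that fell was Myc, a transcription factor known to drive ribosome production, at 91.9, 87.2 and 71.7 CPM in the Ctrl libraries, against 62.2, 66.7 and 54.3 CPM in Chaf1a cko, with a log2 fold change of -0.45 (SE 0.10, adjusted p = 0.0398, edgeR). It did not pass with no filter (adjusted p = 0.0553 in edgeR) or when Ctrl replicate 1 (0.190), Ctrl replicate 2 (0.197) or any 1 Chaf1a cko library (0.0732 to 0.257) was left out. The ribosomal protein genes of mitochondria, a separate ribosome, had 1 riser, Mrpl35 at a log2 fold change of 0.89, and 0 that fell among 78, with a median of 0.13. Mrpl35 did not pass when any library other than Ctrl replicate 1 was left out (adjusted p = 0.0940 to 0.162 in edgeR). Of 39 proteasome genes, taken as another large complex, 0 passed, and the median was 0.12. The medians of these 2 lists thus lay above that of all genes (-0.01) as well. Most genes of every list lay above 0. These were 18 of 20 for RNA polymerase I, 18 of 20 for elongation factors and TOP mRNAs and 64 of 78 for mitochondrial ribosomal proteins. They were 28 of 39 for proteasome genes, 24 of 36 for initiation factors, 57 of 80 for assembly, 13 of 22 for regulators and 6 of 8 for other names. The direction was thus not particular to the cytosolic ribosomal protein genes.

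None of these 8 lists had a gene past the test of edgeR in the 3M set. The medians were -0.07 for initiation factors, -0.08 for elongation factors and TOP mRNAs and -0.25 for the ribosomal proteins with other names, of which 7 were tested and 7 lay below 0. They were -0.05 for RNA polymerase I, -0.09 for assembly, -0.02 for regulators, -0.07 for mitochondrial ribosomal proteins and -0.15 for proteasome genes, against -0.02 over all genes. Below 0 lay 32 of 38 proteasome genes, 53 of 80 assembly genes, 23 of 36 initiation factors and 13 of 20 elongation factors and TOP mRNAs. The same held for 46 of 78 mitochondrial ribosomal protein genes, 11 of 20 genes for RNA polymerase I and 11 of 22 regulators. Rpl22l1, a paralog of Rpl22, was at 72.4, 58.7 and 74.7 CPM in the Ctrl 3M libraries, against 71.9, 39.5 and 47.6 CPM in Chaf1a cko 3M, with overlapping groups and a log2 fold change of -0.37. Rps3a1, a small subunit gene under another name, was at 853, 1050.1 and 1033 CPM in the Ctrl 3M libraries, against 845, 781 and 849 CPM in Chaf1a cko 3M, lower without overlap and with a log2 fold change of -0.25 (SE 0.17, adjusted p = 0.808, edgeR).

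Markers of cell types moved with the groups too, and their part in the shift of the ribosomal protein genes was not tested. The 12 cardiomyocyte markers were abundant in all libraries. They summed to 102458 to 106035 CPM over the Ctrl libraries against 96723 to 97476 CPM over Chaf1a cko, where Mybpc3 and Myl3 rose and Myh6, Atp2a2, Ttn, Ryr2 and Actc1 fell, by 0.13, 0.28, 0.12, 0.24 and 0.09 on the log2 scale. Actc1 did not pass under 12 of 14 alternatives (adjusted p = 0.0506 to 0.247 in edgeR or DESeq2), nor Myl3 under 7 (0.0592 to 0.245), among them most left-out libraries. The sum rests mostly on Myh6 and Ttn, and over the list 7 of 12 markers had a log2 fold change above 0, with a median of 0.04. The 3M sums were 36864 to 46264 CPM over the Ctrl 3M libraries against 53074 to 57977 CPM over Chaf1a cko 3M, where 0 passed, 7 of 12 again lay above 0 and the median was 0.06. The 10 fibroblast markers summed to 3617 to 3739 CPM over the Ctrl libraries against 3014 to 3038 CPM over Chaf1a cko, where Col1a1, Col1a2, Col3a1, Dcn and Lum fell and 0 rose (Lum not with a replicate block or when any 1 library was left out, adjusted p = 0.0702 to 0.160 in edgeR), and to 1283 to 2390.3 CPM over the Ctrl 3M libraries against 1165 to 1530.5 CPM over Chaf1a cko 3M, where 0 passed. The 10 markers of mural and smooth muscle cells summed to 2159 to 2292 CPM over the Ctrl libraries against 2557 to 2592 CPM over Chaf1a cko, with Acta2 higher and Myh11 lower (not past the test when Ctrl replicate 1 or 2 or Chaf1a cko replicate 1 or 2 was left out, adjusted p = 0.0572 to 0.0864 in edgeR), and to 1542 to 2136 CPM over the Ctrl 3M libraries against 1635 to 2269 CPM over Chaf1a cko 3M, where 0 passed.

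The 10 macrophage markers summed to 92.9 to 104 CPM over the Ctrl libraries against 82.0 to 99.2 CPM over Chaf1a cko, and to 449 to 567 CPM over the Ctrl 3M libraries against 291 to 353 CPM over Chaf1a cko 3M, lower without overlap in the 3M set, where 0 passed in edgeR. The 10 endothelial markers summed to 3063 to 3286 CPM over the Ctrl libraries against 3172 to 3218 CPM over Chaf1a cko, and to 4423 to 6176 CPM over the Ctrl 3M libraries against 4749 to 5535 CPM over Chaf1a cko 3M, overlapping in both sets. The 9 erythroid markers in the tables summed to 1667 to 2242 CPM over the Ctrl libraries against 2311 to 2333 CPM over Chaf1a cko, and to 447 to 1036 CPM over the Ctrl 3M libraries against 446 to 4012 CPM over Chaf1a cko 3M, where Hemgn and Epb42 had no count. The 9 lymphocyte markers summed to 21.2 to 31.1 CPM over the Ctrl libraries against 19.97 to 26.4 CPM over Chaf1a cko, and to 3.85 to 15.9 CPM over the Ctrl 3M libraries against 4.46 to 9.56 CPM over Chaf1a cko 3M, where Nkg7 had no count. No marker of these 4 types passed the test in either set.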

How the data were processed

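RNA was sequenced from 12 libraries of mouse heart cells, per the labels' protocols as TRIzol extracts depleted of ribosomal RNA, with a stranded kit. Per the submitters' processing notes, reads went through FastQC, Trimmomatic and HISAT2 with mm10. The program, annotation and strand setting used for counting: not given in the sources used here. The authors deposited whole-number counts per gene symbol, with no normalization, in 2 tables of 6 libraries, which were fitted apart. In R 4.3.3, edgeR 4.0.16 kept genes with filterByExpr (minimum count 10, minimum total 15), scaled by TMM, fitted glmQLFit with robust estimation and tested Chaf1a cko against Ctrl, two-sided, with glmQLFTest and a threshold of 0.05. The difference between sets was an interaction over all 12 libraries. Totals of 10569325 to 20896673 counts set the precision, and SEs cover sampling of reads and differences between libraries. Shares are relative to library totals.

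Genes named were taken from the 8 called genes, the 4 with the smallest p in the 3M set and of the interaction, 4 paralog pairs, stalk genes, the 3 highest and 3 lowest per kilobase, and up to 4 per list, with Chaf1a. Other genes named beside copies, spread or counts, the copy criteria and the bound of 30% were chosen after values were seen. The members and lists were chosen with earlier results of these data known. Copies were found with blastn 2.17.0 in GENCODE M21. Promoters were the first RefSeq entry of a gene. Alternatives were DESeq2 1.42.0 size factors and Wald test, library size alone, TMM without these genes, 2 filters, a replicate block, left-out libraries, shares from TMM-scaled CPM or with pseudogenes, and, added later, copies summed with their genes. The scripts were tested on simulated data. Some items are not reported here by name, though counts, sums and medians include them.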

Additional observations from a re-analysis of the deposited data

Results flagged for a closer look

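The summed share of the ribosomal protein genes moved in opposite directions in the 2 sets: every Chaf1a cko library lay above every Ctrl library in the first set, by 0.190 percentage points on average, and every Chaf1a cko 3M library lay below every Ctrl 3M library, by -0.576 percentage points on average. The difference between the sets was not tested for this sum. Per gene, the interaction of set and genotype passed for 0 of 82 genes in edgeR, as given above.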

How the results depend on the processing

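The count of 8 called genes in the first set became 16 with the DESeq2 Wald test and 4 to 12 when 1 library was left out, and stayed within 7 to 10 under the other alternatives; fewer samples entered the left-out fits, and for DESeq2 the cause was not tested. The interaction count of 0 became 8 with the DESeq2 Wald test. The 3M count was 0 under every alternative run. The median log2 fold change without 1 library ran from 0.15 to 0.20 in the first set and from -0.31 to -0.19 in the 3M set, lowest in size without Ctrl 3M replicate 3. The difference in summed share ran from 0.179 to 0.207 and from -0.777 to -0.416 percentage points. Calls over all genes in the first set were 170 higher and 100 lower, against 308 and 171 with DESeq2, and 74 to 148 higher and 49 to 61 lower without 1 library. They were 1 and 1 in the 3M set, against 31 and 41 with DESeq2 and 5 and 1 with no filter, and 13 and 2 in the interaction, against 259 and 195 with DESeq2, 7 and 0 with library size alone and 1 to 56 higher and 0 to 54 lower without 1 library.

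Replicate numbers gave no clear sign of pairing. Deviations over all tested genes correlated at -0.014 to 0.034 for same-numbered libraries and at -0.039 to 0.016 for the others. The highest value was that of a same-numbered pair, and such low correlations cannot exclude pairing. With a replicate block, 8 genes were called in the first set (125 genes higher and 67 lower overall), 0 in the 3M set and 0 in the interaction, where 0 genes passed overall in either.

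Of 1316 values of named genes under alternatives, 1193 kept direction and side of the threshold. The threshold was lost by 83 and gained by 15, and 25 reversed, none of them called in the same set. Rpl27 and Rpl4, called in the first set, reversed in the 3M set only. In the first set, Rpl22l1 was -0.00853 with library size alone, -0.021 with a filter of 10 CPM in 3 libraries, -0.021 with the block and -0.12 to 0.22 without 1 library. Leaving out 1 library moved Rpl39l from -0.65 to 0.43, Rps27 from -0.13 to 0.25, Rpl3l from -0.30 to 0.29, Rps15 from -0.054 to 0.041, Rps2 from -0.023 to 0.093 and Rps28 from -0.40 to 1.27. In the 3M set it moved Rpl27 from -0.22 to 0.032, Rpl4 from -0.068 to 0.12 and Rps15 from -0.22 to 0.016. Background reads limit genes under about 5.35 CPM in the first set.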
